A study of Mus musculus with 12 samples.

Results

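The transcripts described here are those of 5 beta-defensin genes of mouse skin, Defb1, Defb3, Defb4, Defb6 and Defb14. They were taken by Ensembl identifier from the 55416 genes listed for every library, which hold 43 genes with a Defb symbol in all. Ear skin of C57BL/6 mice, 8 to 12 weeks old, was sequenced as mRNA on day 6, with 3 libraries in each of 4 groups. In 3 of the groups the ears had received 20.8 mg of Aldara cream with 5% imiquimod each day, an activator of Toll-like receptor 7 used to provoke psoriasis-like inflammation, and skin was taken 1 day after the last dose. IMQ_Veh is the imiquimod group injected with DMSO, the vehicle of both drugs. IMQ_GW3965 received imiquimod and, from day 3, a daily intraperitoneal injection of GW3965 at 20 mg/kg, which activates the liver X receptors (LXR). IMQ_Troglitazone received imiquimod and, from day 3, 150 mg/kg troglitazone, an agonist of PPARγ, by the same route. UTX_Veh names the vehicle and no imiquimod, and the labels do not spell out UTX. No group had cream without imiquimod, so the agent and the cream base cannot be told apart. Whether libraries of a group came from different mice is not labelled, and p-values here reflect only how far libraries differ, which may be technical.

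Beta-defensins are small cationic peptides, held by disulfide bonds, that epithelial cells secrete and that kill microbes by disturbing their membranes. Several of them also attract immune cells, among others through the chemokine receptor CCR6. In keratinocytes some members are made steadily, while others are switched on by microbial products and by cytokines such as IL-17A, IL-22, IL-1 and IL-36, and they are known as abundant products of psoriatic skin.

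All 5 genes lie on chromosome 8 (GRCm38) on the forward strand, and each annotated transcript has 2 exons. Within 100935 bases stand Defb14 (ENSMUSG00000046354, 19194357 to 19195212), Defb4 (ENSMUSG00000059230, 19198706 to 19201545), Defb6 (ENSMUSG00000050756, 19225478 to 19228209) and Defb3 (ENSMUSG00000039775, 19293360 to 19295291). Defb1 (ENSMUSG00000044748, 21776599 to 21795185) starts 2481307 bases beyond the end of Defb3. Of the 4 other genes annotated between Defb14 and Defb3, 3 had 0 reads in all 12 libraries and the remaining one had 1 read. The longest stretch that any 2 of the 5 transcripts share exactly was 33 bases, in Defb3 and Defb4, followed by 26 bases in Defb4 and Defb6 and at most 12 in the other pairs. All 60 expected counts of the 5 genes were whole numbers.

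The 250 bases before the RefSeq start are printed for Defb6 and Defb3, the 2 of the 5 genes whose upstream sequences were at hand. These 2 had alike upstream sequences and unlike shares of their rise left with the drugs, a difference between genes that was not tested. The sequences are of GRCm38.p6, forward strand, from chr8:19225228-19225477 for Defb6 and chr8:19293111-19293360 for Defb3. The Defb3 window ends on the first base of that gene as placed above.
Defb6: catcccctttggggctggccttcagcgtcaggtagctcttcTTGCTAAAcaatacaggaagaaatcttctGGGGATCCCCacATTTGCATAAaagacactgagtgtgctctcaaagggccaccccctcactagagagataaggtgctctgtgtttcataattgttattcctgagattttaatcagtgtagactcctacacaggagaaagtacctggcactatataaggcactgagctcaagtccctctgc
Defb3: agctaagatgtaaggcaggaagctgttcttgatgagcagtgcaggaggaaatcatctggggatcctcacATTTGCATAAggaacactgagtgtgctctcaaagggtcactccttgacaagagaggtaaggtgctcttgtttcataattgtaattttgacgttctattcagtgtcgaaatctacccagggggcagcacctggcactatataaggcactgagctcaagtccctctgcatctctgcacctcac
Aligned, the pair held the same base at 192 of 235 positions (81.7%), with a longest identical run of 40 bases. Capitals mark matches to 8 motifs searched on both strands, chosen after the sequences were seen: AP-1 as TGANTCA, C/EBP as TTGCNNAA, STAT as TTCNNNGAA, the octamer as ATTTGCAT, the TATA box as TATAAA, and NF-kB, the LXR repeat DR4 and the PPAR repeat DR1 by name. The octamer matched in both (from base -168 in Defb6 and -181 in Defb3, counted back from the start) and overlaps a C/EBP match that begins 2 bases further on. An NF-kB match at -180 and a further C/EBP match at -209 were found in Defb6. Over 27025 promoters of the same length, 1.61% held the octamer, 9.55% the C/EBP motif and 7.01% the NF-kB motif. The other 5 motifs had no match in these windows in the form searched. Both windows hold tatataag, which the spelling TATAAA does not match, so absence of a TATA box is not shown.

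Total expected counts per library lay between 18242074 and 25641602, and 17130 genes passed the filter on low counts, all 5 members among them. Levels below are in CPM, a gene's counts relative to the library's total, scaled by TMM, a factor that aligns the bulk of genes between libraries, and a change is called where the adjusted p of edgeR's quasi-likelihood test over all 17130 genes is under 0.05. IMQ_Veh replicate 3 and IMQ_GW3965 replicate 3 stood apart. In the former, 9 skeletal muscle markers summed to 4765 CPM, against 1173 and 1097 in the other IMQ_Veh libraries. In the latter, 11.6% of counts fell on the single gene ENSMUSG00000119584. Results that rest on these libraries are also given without them. All 5 basal and 6 suprabasal keratinocyte markers were detected.

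In skin that received imiquimod with vehicle, all 5 beta-defensins rose, Defb1 least, by 3.57-fold, and Defb3 by at least 468-fold. Defb6 and Defb1 were already well read in UTX_Veh, while Defb14 had 2 to 9 reads a library, Defb4 had 1 read in the whole group and Defb3 had none. All 5 passed the test as higher in IMQ_Veh, where 33.0% of all genes did. In none of the 5 did the groups overlap, which was so for 34.7% of all genes in that direction. The median log2 difference was 4.51 over the 5 genes, that of Defb14 also with Defb3 and Defb4 at their bounds, and 0.0075 over all genes tested.

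**Figure D1:**
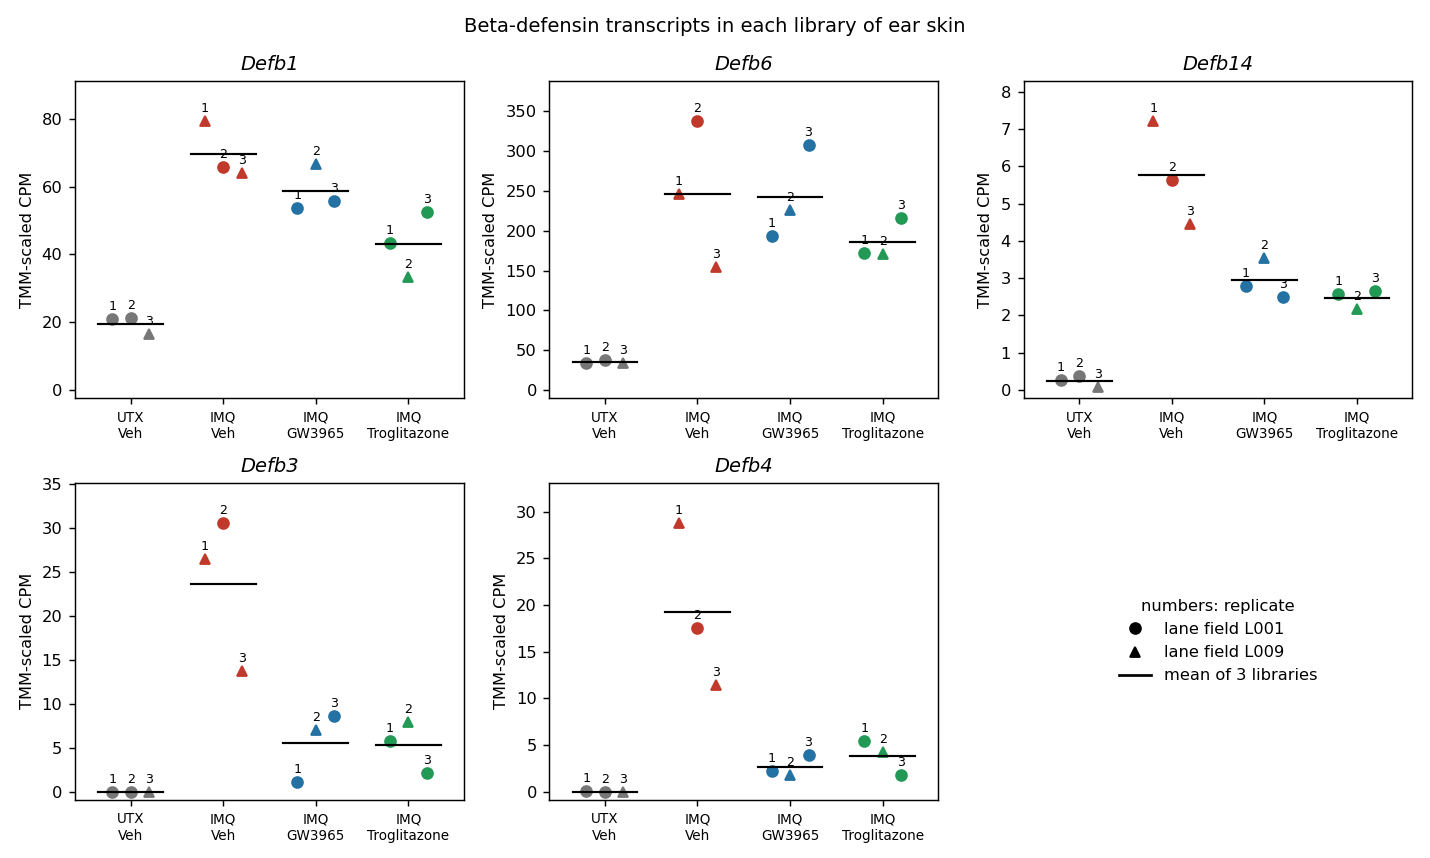
TMM-scaled CPM (vertical axis, linear from 0) of each beta-defensin in the 12 libraries, by group; circles and triangles are the lane fields L001 and L009, small numbers the replicates and lines the means of 3 libraries. UTX_Veh lies lowest for all 5 genes, IMQ_Veh replicate 3 is the lowest IMQ_Veh library for all 5, and the Defb6 means of IMQ_Veh and IMQ_GW3965 are 245.8 and 242.6 CPM.

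Defb1, the member regarded as constitutive in epithelia, had 20.8, 21.3 and 16.4 CPM in the UTX_Veh libraries and 79.3, 65.8 and 64.1 CPM in IMQ_Veh. The lowest imiquimod library thus lay well above the highest UTX_Veh library. The group means were 19.5 ± 2.69 and 69.7 ± 8.34 CPM (SD, n = 3 each), and the fitted log2 difference was 1.84 ± 0.17 (SE; edgeR adjusted p = 6.37e-06).

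Defb6, a beta-defensin described from mouse muscle and epithelia, was the most read member. It had 33.8, 37.4 and 34.4 CPM in UTX_Veh and 245.8, 337.5 and 154.1 CPM in IMQ_Veh. UTX_Veh was tight and IMQ_Veh spread over a wide range, with replicate 2 on top and replicate 3 lowest. From 35.2 ± 1.93 to 245.8 ± 91.7 CPM (SD, n = 3 each), the fitted log2 difference was 2.80 ± 0.26 (SE; edgeR adjusted p = 5.93e-06). The 9 skeletal muscle markers went the other way: their summed level was 9895 to 11257 CPM in UTX_Veh and 1097 to 4765 CPM in IMQ_Veh. All 9 were called lower, where 28.9% of all genes were.

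Defb14, the mouse counterpart of human beta-defensin 3, had 0.275, 0.376 and 0.0854 CPM in UTX_Veh, from 7, 9 and 2 reads, and 7.21, 5.63 and 4.46 CPM in IMQ_Veh. Its log2 difference was 4.51 ± 0.36 (SE; edgeR adjusted p = 2.51e-06). In IMQ_Veh it was the least read of the 5, with 85 to 140 reads a library.

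Defb3 and Defb4, inducible members, were close to silent in UTX_Veh. Defb3 had 0 reads in all 3 UTX_Veh libraries and 26.5, 30.6 and 13.8 CPM in IMQ_Veh, from 510, 761 and 262 reads. Counted against a floor of 3 reads over the UTX_Veh group, Defb3 was at least 468-fold higher (edgeR adjusted p = 8.52e-05), and at least 306-fold without UTX_Veh replicate 1, which lowers the depth behind the floor. For Defb4, 1 read in UTX_Veh replicate 1 was set against 28.8, 17.5 and 11.4 CPM in IMQ_Veh, from 1209 reads. The ratio was 1140, with a 95% interval of 204 to 45049 for counting error (edgeR adjusted p = 3.15e-06). Without UTX_Veh replicate 1 there is no read, and the bound is at least 248-fold.

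On the TPM scale, the deposited unit that corrects for transcript length and allows genes to be ranked, Defb6 led in every group. In UTX_Veh the order was Defb6 (485 ± 14.1 TPM, SD, n = 3), Defb1 (51.0 ± 6.27), Defb14 (14.5 ± 8.23), Defb4 and Defb3. The libraries of each of the first 3 did not overlap with the next. In IMQ_Veh, Defb6 (2335 ± 835 TPM) was followed by Defb3 (340 ± 113), Defb14 (240 ± 36.2), Defb1 (125 ± 8.07) and Defb4 (90.1 ± 35.9). There the ranges of Defb3 and Defb14 overlapped, as did those of Defb1 and Defb4, while Defb14 lay above Defb1 in every library. On this scale Defb1 thus moved from the second to the fourth rank while its own level rose. In CPM it stayed behind Defb6 only, with 69.7 in IMQ_Veh against 23.6 for Defb3. The effective length was 78.3 to 86.45 bases for Defb3 and 665.8 to 675.7 for Defb1, so this ranking rests on short lengths for Defb3 too. With GW3965 Defb6 led (2207 ± 240.0 TPM), ahead of Defb14 (123 ± 30.8), Defb1 (103 ± 18.7) and Defb3 (75.6 ± 50.2), whose ranges overlapped, and Defb4 was lowest (11.9 ± 3.45). With troglitazone Defb6 (2173 ± 287) was again followed by Defb14 (132 ± 9.05), Defb3 (95.8 ± 55.2) and Defb1 (93.3 ± 20.2), of which Defb14 lay above Defb1 in every library, and by Defb4 (21.9 ± 10.5). The annotated Defb14 transcript has 204 bases, which left an effective length of only 25.9 to 31.2 bases in the deposited tables, so its TPM rests on a very short length.

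Without TMM scaling, the 5 genes together gave 58.9 to 67.9 CPM in UTX_Veh and 238 to 443 CPM in IMQ_Veh. Defb6 made up 86.6% to 90.9% of their summed TPM in UTX_Veh and 70.8% to 78.8% in IMQ_Veh. With GW3965 that share was 85.0% to 89.3%, and with troglitazone 84.6% to 89.3%, so IMQ_Veh was the group in which the other 4 members held a larger part.

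Within each lane field, a tag L001 or L009 in the deposited tables' names that the labels do not explain, the rise had the same direction. The log2 ratio of mean CPM of IMQ_Veh to UTX_Veh in L001 and L009 was 1.65 and 2.13 for Defb1, 3.25 and 2.54 for Defb6, and 4.11 and 6.09 for Defb14. Defb3 was at 0 reads in UTX_Veh in both. All 5 genes also passed in each of 24 alternative settings. In a bulk sample, a change in the number of cells of a type and in RNA per cell cannot be told apart. Summed markers of basal keratinocytes, 5 genes, were 10923 to 12261 CPM in UTX_Veh and 22666 to 30574 in IMQ_Veh. The 5 did not move together: 2 were called higher and 2 lower, where 33.0% and 28.9% of all genes were. Those of neutrophils, 7 genes, summed to 17.0 to 21.9 and 110 to 115 CPM, with 5 of 6 tested called higher and 0 lower. No marker of either list was at 0, and their part in the rise was not tested.

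The other 38 Defb genes stayed near silence in all 4 groups. No read was assigned to 29 of them in any library, and the most read, Defb2, had 5 reads over the 12 libraries. None passed the filter on low counts. A count of 0 over a group allows up to 3 reads.

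GW3965 was set against vehicle to ask what an LXR agonist does to inflamed skin. Defb4 fell, to 13.7% of its rise, and was the only member called: 1 of 5, where 2.88% of all genes were called lower and 3.71% higher. Defb3 and Defb14 had lower levels in every GW3965 library than in any vehicle library and did not pass the test. Groups that did not overlap, with GW3965 lower, made up 3 of 5 members and 12.0% of all genes. Defb6 and Defb1 overlapped with vehicle. The share of the rise is the mean CPM above UTX_Veh as a percentage of that of IMQ_Veh.

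Defb4 had 2.22, 1.82 and 3.92 CPM with GW3965, from 49, 35 and 58 reads, against 28.8, 17.5 and 11.4 CPM in IMQ_Veh. All GW3965 libraries lay below the lowest vehicle library. The fitted log2 difference was -2.88 ± 0.45 (SE; 95% interval -3.87 to -1.89; edgeR adjusted p = 0.00854). Without IMQ_GW3965 replicate 1 the log2 difference was -2.76 and the adjusted p 0.0632, the highest of 24 alternatives, which began at 8.15e-08. The count over all genes in that fit was 105, against 1129 with all libraries. In L001 the log2 ratio of means was -2.52 and in L009 -3.47.

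Defb3 had 1.13, 7.07 and 8.58 CPM with GW3965, against 26.5, 30.6 and 13.8 in IMQ_Veh. Replicate 1 was far below the other GW3965 libraries. The log2 difference was -2.10 ± 0.65 (SE; 95% interval -3.56 to -0.65; edgeR adjusted p = 0.0787). The call appeared without IMQ_Veh replicate 3 (adjusted p = 0.0285) and not without IMQ_GW3965 replicate 3 (0.103), and the range over alternatives was 0.0229 to 0.192. Within L001 and L009 the log2 ratios were -2.66 and -1.51.

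Defb14 had 2.80, 3.53 and 2.50 CPM with GW3965, against 7.21, 5.63 and 4.46 in IMQ_Veh. These are 37 to 68 reads against 85 to 140, and the groups do not overlap. The log2 difference of -0.96 ± 0.28 (SE; 95% interval -1.57 to -0.35) had an edgeR adjusted p of 0.0589, which moved between 0.00673 and 0.201. It passed without UTX_Veh replicate 3 (0.0441) and without IMQ_Veh replicate 3 (0.0166), and not without IMQ_GW3965 replicate 3 (0.15). The log2 ratios within L001 and L009 were -1.09 and -0.72.

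Defb1 had 53.6, 66.7 and 55.7 CPM with GW3965, and replicate 2 lay inside the vehicle range. The log2 difference was -0.25 (95% interval -0.61 to 0.11; edgeR adjusted p = 0.367). Defb6 had 193.5, 226.6 and 307.7 CPM, between the lowest and highest of the vehicle libraries. Its log2 difference was -0.02, with a 95% interval from -0.54 to 0.50 and an adjusted p of 0.973, and its sign depended on the setting. The interval leaves room for a change of up to about that size in either direction. Within L001 and L009 the log2 ratios were -0.27 and -0.10 for Defb1 and -0.43 and 0.18 for Defb6.

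With troglitazone, a PPARγ agonist, Defb4, Defb14 and Defb1 fell against the same vehicle libraries. That is 3 of 5 members called lower, where 4.65% of all genes were lower and 4.69% higher. Defb3 was lower in every troglitazone library without passing the test, so that 4 of 5 members, and 14.0% of all genes, had troglitazone wholly below vehicle. Defb6 overlapped with vehicle. Without IMQ_Veh replicate 1 none of the 5 was called, with adjusted p of 0.123 for Defb1, 0.0575 for Defb4 and 0.111 for Defb14. Without IMQ_Veh replicate 3, in contrast, all 5 were, and without IMQ_Troglitazone replicate 1 or 2 only Defb4 was. The calls over all genes moved in the same direction, from 1600 with all libraries to 162 without IMQ_Veh replicate 1, 4460 without IMQ_Veh replicate 3, and 750 and 1082 without IMQ_Troglitazone replicate 1 and 2.

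Defb4 had 5.42, 4.27 and 1.76 CPM with troglitazone, from 128, 88 and 43 reads. Each lay below the lowest vehicle library, at 11.4 CPM. The log2 difference was -2.34 ± 0.43 (SE; 95% interval -3.28 to -1.39; edgeR adjusted p = 0.0127, 1.94e-05 to 0.10 over the alternatives). The ratios within L001 and L009, -2.29 and -2.24 on the log2 scale, were close to each other.

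Defb14 had 2.58, 2.18 and 2.67 CPM, the narrowest range of any member in this group. All were below the lowest vehicle library, at 4.46 CPM, and the log2 difference was -1.22 ± 0.28 (SE; 95% interval -1.82 to -0.61; edgeR adjusted p = 0.0252, 0.000353 to 0.111 over the alternatives). The call was also lost without IMQ_Troglitazone replicate 1 (0.0649), replicate 2 (0.0661) or replicate 3 (0.0831). Within L001 and L009 the log2 ratios were -1.10 and -1.42.

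Defb1 had 43.3, 33.5 and 52.7 CPM with troglitazone, against 79.3, 65.8 and 64.1 in IMQ_Veh. The groups did not overlap, and 47.0% of the rise was left. The log2 difference was -0.69 ± 0.16 (SE; 95% interval -1.05 to -0.33; edgeR adjusted p = 0.0283, 0.00301 to 0.125 over the alternatives). It also missed the threshold without IMQ_Troglitazone replicate 1 (0.0701) or replicate 2 (0.0657). The log2 ratio was -0.46 within L001 and -1.10 within L009.

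Defb3 had 5.80, 7.95 and 2.13 CPM, with replicate 3 lowest. Its log2 difference of -2.16 ± 0.65 (SE; 95% interval -3.61 to -0.72) had an edgeR adjusted p of 0.0638, and it passed without IMQ_Veh replicate 3 (0.0221) or without IMQ_GW3965 replicate 1 (0.0286), in a range of 0.0188 to 0.199. Defb6 had 172.4, 170.2 and 216.5 CPM, all inside the vehicle range. Its log2 difference was -0.40 (95% interval -0.92 to 0.12; edgeR adjusted p = 0.297), and without IMQ_Veh replicate 3 it was -0.65 with an adjusted p of 0.0269, in a range of 0.0145 to 0.846. Within L001 and L009 the log2 ratios were -2.95 and -1.34 for Defb3 and -0.80 and -0.23 for Defb6.

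**Figure D2:**
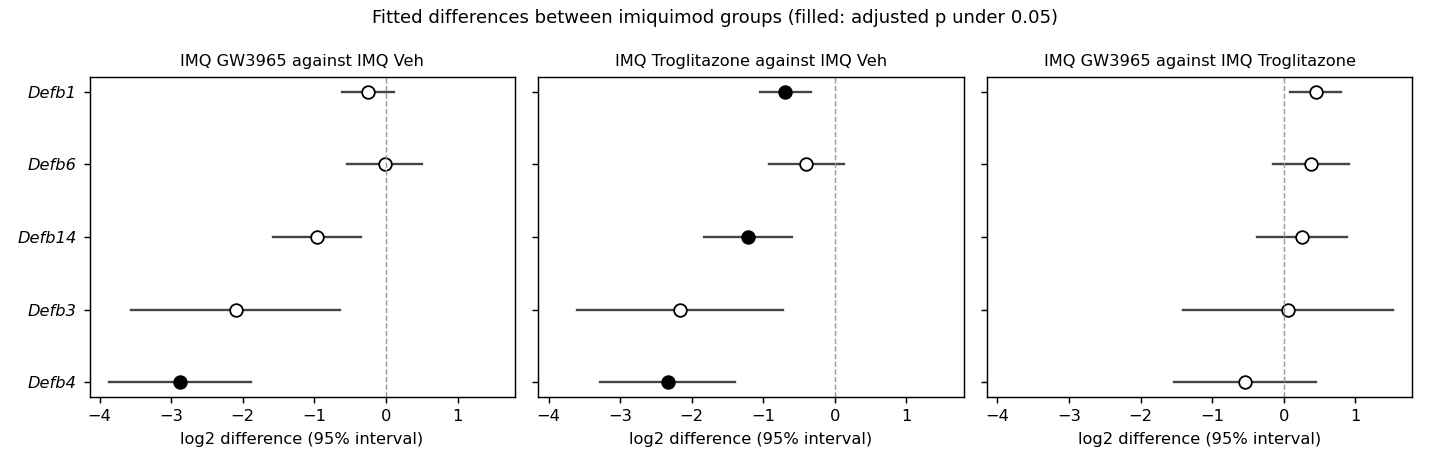
Fitted log2 differences (horizontal axis) with 95% intervals for the 5 beta-defensins in 3 comparisons; filled points have an edgeR adjusted p under 0.05. Filled points are Defb4 for GW3965 and Defb1, Defb14 and Defb4 for troglitazone, and none is filled between the drugs.

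**Figure D3:**
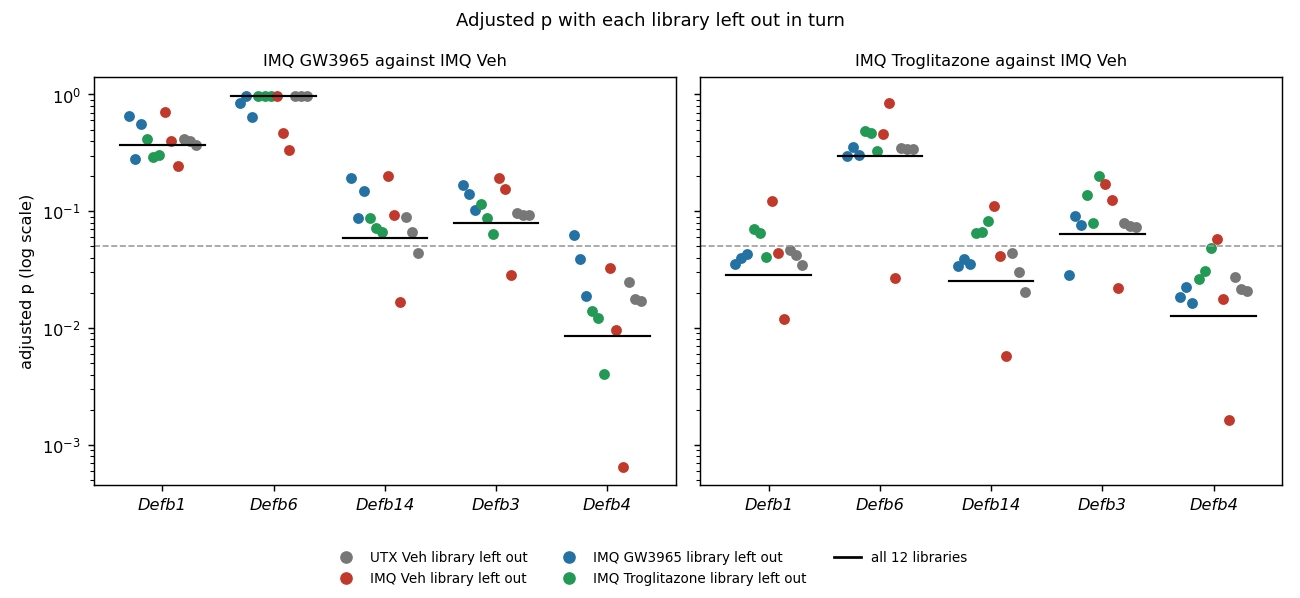
Adjusted p (log scale) of each member with each of the 12 libraries left out in turn, coloured by the group of the library left out; black lines are the fits with all 12 and the dashed line is 0.05. Without IMQ_GW3965 replicate 1, Defb4 moves to 0.0632, and in the troglitazone comparison the highest Defb1, Defb4 and Defb14 points, at 0.123, 0.0575 and 0.111, are those without IMQ_Veh replicate 1.

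Both drug comparisons share the 3 IMQ_Veh libraries, so their values are set side by side and not counted as 2 independent results. With GW3965 and with troglitazone, 13.7% and 19.8% of the rise of Defb4 was left, 23.7% and 22.4% of that of Defb3, and 48.9% and 40.4% of that of Defb14. For Defb1 these shares were 78.0% and 47.0%, and for Defb6 98.5% and 71.8%. These shares are of TMM-scaled CPM. In mean TPM the drugs lay closer, at 2207 and 2173 for Defb6 and 103 and 93.3 for Defb1. How far the drugs differ in these 2 genes thus depends on the scale. The members silent in UTX_Veh had the smallest shares left and the most read member the largest; that difference between genes was not tested. Neutrophil markers had summed levels of 110 to 115 CPM in IMQ_Veh, 30.9 to 61.0 with GW3965 and 36.9 to 66.5 with troglitazone, so vehicle did not overlap with either drug. Of the 6 neutrophil markers tested, 2 were called lower and 0 higher with each drug. Basal keratinocyte markers summed to 22666 to 30574 CPM, 19545 to 23265 and 15663 to 20699 in the same order, with an overlap for GW3965. Single basal markers did not all follow the sum: of 5, 2 were called higher and 0 lower with GW3965, and 1 higher and 1 lower with troglitazone. The 6 suprabasal markers summed to 28380 to 44368, 41227 to 56730 and 40238 to 49930 CPM, with 2 called higher and 0 lower with each drug. The 9 skeletal muscle markers summed to 1097 to 4765 CPM in vehicle, 5426 to 7791 with GW3965 and 3612 to 5485 with troglitazone, which overlapped with vehicle. Of these 9, 2 were called higher with GW3965 and 0 with troglitazone, and 0 lower with either. Markers of sebaceous glands, 7 genes, summed to 1748 to 3486 CPM in vehicle, 5482 to 7091 with GW3965 and 3817 to 4272 with troglitazone, and neither drug overlapped with vehicle. Of these 7, 4 were called higher with GW3965 and 1 with troglitazone, and 0 lower with either. Over all genes, 3.71% were called higher and 2.88% lower with GW3965, and 4.69% and 4.65% with troglitazone. The part of these marker lists in the drug differences was not tested.

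**Figure D4:**
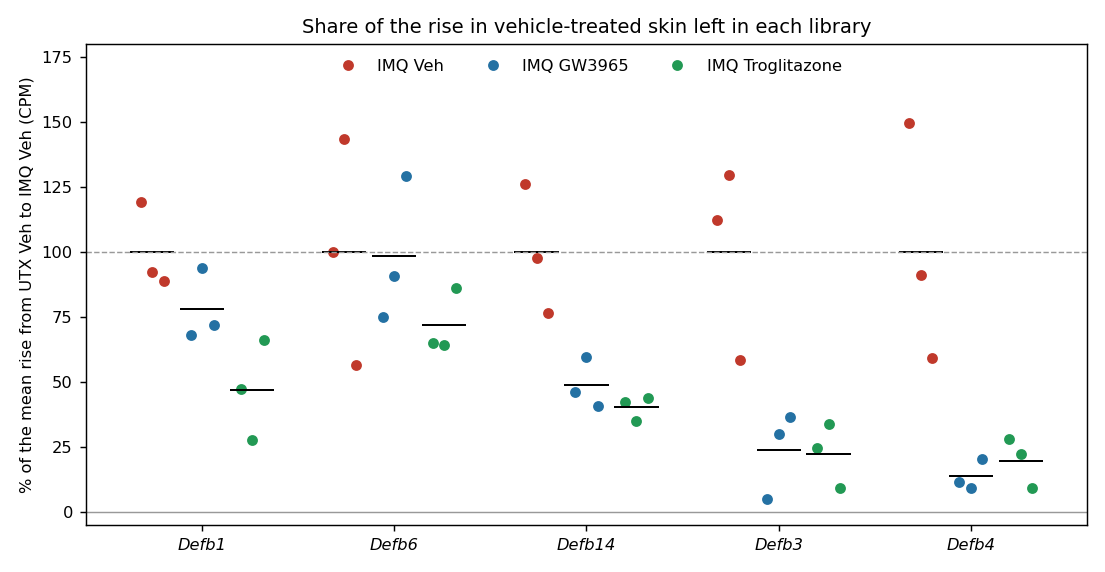
Level of each library above the UTX_Veh mean as a percentage of the mean rise in IMQ_Veh (vertical axis, from TMM-scaled CPM), for each beta-defensin; points are libraries and black lines means of 3. GW3965 and troglitazone means lie at 13.7% and 19.8% for Defb4 and at 98.5% and 71.8% for Defb6.

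Compared directly, at 20 mg/kg GW3965 and 150 mg/kg troglitazone, no member differed past the threshold in edgeR, DESeq2 or limma-voom. Of all genes, 1.86% were called. At an unadjusted p under 0.05 there was 1 member, Defb1, with 53.6, 66.7 and 55.7 CPM under GW3965 and 43.3, 33.5 and 52.7 CPM under troglitazone. These did not overlap, as for 14.1% of all genes with GW3965 higher, and the log2 difference was 0.44 ± 0.16 (SE; 95% interval 0.08 to 0.80; edgeR adjusted p = 0.205). On the TPM scale Defb1 did overlap, with 103.9, 120.9 and 83.7 under GW3965 and 91.1, 74.3 and 114.4 under troglitazone. For the others the 95% intervals of the log2 difference were -1.40 to 1.53 for Defb3, -1.54 to 0.45 for Defb4, -0.14 to 0.90 for Defb6 and -0.37 to 0.88 for Defb14. The intervals for Defb3 and Defb4 are wide, and the doses differ, so the drugs are not shown to act alike. Within L001 and L009 the log2 ratio for Defb1 was 0.19 and 0.996.

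Against UTX_Veh, all 5 members were still higher in both drug groups, where 28.7% of all genes were called higher with GW3965 and 26.5% with troglitazone. These calls held in each of the 24 alternatives. Fitted log2 differences with GW3965 and troglitazone were 1.59 and 1.145 for Defb1, 2.78 and 2.40 for Defb6, and 3.55 and 3.30 for Defb14. Defb3 remained at least 102-fold and 110-fold above the floor, and at least 66.9-fold and 72.3-fold without UTX_Veh replicate 1. For Defb4 the ratios to the 1 read of UTX_Veh were 145 (95% interval 25.7 to 5778) and 236 (42.0 to 9354). Without UTX_Veh replicate 1, which held that read, the bounds are at least 32.2-fold and 51.9-fold.

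Of 27 genes for cytokines known to induce beta-defensins and their receptors, 26 were tested, and 23 rose and 2 fell in IMQ_Veh against UTX_Veh (33.0% and 28.9% of all genes), with a median log2 of 2.32. Il17a, a main inducer in psoriatic skin, had 0 reads in UTX_Veh and 33, 85 and 11 reads in IMQ_Veh (edgeR adjusted p = 0.000889). Il22, a T cell cytokine that acts on keratinocytes, had 1 read in UTX_Veh and 3.53, 10.01 and 2.10 CPM in IMQ_Veh (edgeR adjusted p = 0.00128). Il36g, a keratinocyte cytokine, rose from 40.3 ± 3.75 to 221.8 ± 47.7 CPM (SD, n = 3; edgeR adjusted p = 2.36e-06), and Il1b from 1.03 ± 0.926 to 119.9 ± 16.5 CPM (edgeR adjusted p = 3.64e-05). Il6 and Il24, both of which act on keratinocytes, rose by log2 7.01 ± 1.46 and 6.96 ± 1.28 (SE; edgeR adjusted p = 0.00145 and 0.000639). Those that fell were Il22ra1, the IL-22 receptor subunit of epithelia (log2 -0.64), and Il6st, a shared receptor subunit (-0.59).

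With GW3965, 5 of the 26 fell and none rose (2.88% and 3.71% of all genes): Il17a (log2 -3.54), Il1b (-2.90), Osm (-2.68), Osmr (-0.77) and Il17ra (-0.69). With troglitazone, where 4.65% of all genes fell and 4.69% rose, 5 fell, Il1b (-3.46), Osm (-3.35), Il17a (-3.08), Il24 (-3.01) and Il17rc (-0.31), and Il22ra1 rose (0.95). Il24 lay at the threshold with both drugs. Its edgeR adjusted p was 0.04994 with troglitazone and 0.05006 with GW3965 (log2 -3.33), and 0.921 between the drugs. The fall of Il17a was from 129 reads over IMQ_Veh to 9 and 15 reads, and its edgeR adjusted p of 0.0499 and 0.0494 were at the threshold. With each library left out in turn, Il17a passed in 3 and 2 of 12 fits, Osmr in 3, Il17rc in 2 and Il24 in none. Il17ra under GW3965, and Osm and Il22ra1 under troglitazone, passed in all 12. Il1b was lost under GW3965 without IMQ_Veh replicate 1 or any GW3965 library, and under troglitazone without IMQ_Veh replicate 1 (0.0512). Osm was lost under GW3965 without IMQ_Veh replicate 1 or IMQ_GW3965 replicate 1 or 2. Il17f, Il22 and Il36g did not pass with either drug, with edgeR adjusted p of 0.0982, 0.116 and 0.356 for GW3965 and 0.127, 0.120 and 0.0990 for troglitazone. Without IMQ_Veh replicate 3 all of these but Il36g under GW3965 passed, and Il22 under GW3965 also passed without IMQ_GW3965 replicate 3 (0.0466). Between the drugs 1 of the 26 differed, Il22ra1, where 1.86% of all genes were called. Il22ra1 had 25.5 ± 4.03 CPM with GW3965 and 39.5 ± 2.74 with troglitazone (edgeR adjusted p = 0.0388), and passed in 3 of 12 fits with a library left out.

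Among 22 genes of the signalling steps and transcription factors behind these cytokines, 16 rose and 2 fell in IMQ_Veh against UTX_Veh, where 33.0% of all genes rose and 28.9% fell. Nfkbiz, a co-activator of IL-17 and IL-36 target genes, rose from 23.6 ± 8.19 to 147.4 ± 19.6 CPM (SD, n = 3; edgeR adjusted p = 1.01e-05). Fosl1, an AP-1 subunit, rose by log2 3.23 ± 0.49, Nod2, a sensor of bacterial wall fragments, by 3.07 ± 0.32, and Cebpb, a C/EBP factor, by 1.67 ± 0.15 (SE; edgeR adjusted p = 0.000173, 1.35e-05 and 4.86e-06). Ahr, the aryl hydrocarbon receptor (log2 -0.70), and Tlr5, the flagellin receptor (-0.85), fell. With each drug 1 of the 22 was called lower, a share near the 2.88% (GW3965) and 4.65% (troglitazone) of all genes. With GW3965 it was Stat3 (log2 -0.64; edgeR adjusted p = 0.0482, in 3 of 12 fits with a library left out), and with troglitazone Junb (-0.60; edgeR adjusted p = 0.0284, lost without IMQ_Veh replicate 1 or 2). Nfkbiz had edgeR adjusted p of 0.0982 and 0.204, and passed for GW3965 without IMQ_Veh replicate 3 (0.0479).

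Receptors and partners gave 4 genes higher and 1 lower of 8 tested, which is not far from the 33.0% and 28.9% of all genes. Ccl20, the chemokine ligand that shares the receptor CCR6 with beta-defensins, rose by log2 4.98 ± 0.79 (SE; edgeR adjusted p = 0.000240), and Ccr2, a receptor of monocytes that beta-defensins have also been reported to engage, by 1.79 ± 0.28 (edgeR adjusted p = 0.000241). Tlr1, a lipopeptide receptor, rose by 3.11 ± 0.46 (SE; edgeR adjusted p = 0.000132). Mrgprb2, a mast cell receptor for cationic peptides, fell by 1.80 on the log2 scale (edgeR adjusted p = 0.00304). Ccr6 had 7 to 17 reads a library in UTX_Veh and 11 to 14 in IMQ_Veh (edgeR adjusted p = 0.711). With each drug, Ccr2 was the 1 gene of 8 called, where 2.88% (GW3965) and 4.65% (troglitazone) of all genes were called lower. Its log2 difference was -2.10 with GW3965 and -1.58 with troglitazone (edgeR adjusted p = 0.00600 and 0.0126, the latter 0.0548 without IMQ_Troglitazone replicate 3). Ccl20 had 10.3, 36.0 and 5.88 CPM in IMQ_Veh, 12.7, 10.5 and 30.3 with GW3965 and 15.3, 35.8 and 20.4 with troglitazone. The 3 groups overlap.

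Of 20 other antimicrobial proteins of skin, 18 were tested, and 12 rose and 1 fell in IMQ_Veh against UTX_Veh (33.0% and 28.9% of all genes). S100a8, a subunit of calprotectin, rose by log2 9.74 ± 1.04 and S100a7a, the mouse relative of psoriasin, by 5.81 ± 0.82 (SE; edgeR adjusted p = 1.56e-05 and 0.000102). S100a9, the partner of S100a8, rose by 10.07 ± 1.17 and Slpi, a secreted protease inhibitor with antimicrobial activity, by 6.42 ± 0.38 (edgeR adjusted p = 2.69e-05 and 5.09e-07). Retnla, an antibacterial resistin-like protein, fell (log2 -4.30). Over all genes 2.88% fell and 3.71% rose with GW3965, and 4.65% and 4.69% with troglitazone. With GW3965 3 of the 18 fell, S100a8 (log2 -2.81), S100a7a (-2.43) and Pglyrp4 (-0.72), a peptidoglycan recognition protein, and with troglitazone the same 3 (-2.87, -2.31 and -0.58) and Wfdc12 (-1.16). Lyz1, a lysozyme, rose with each (0.95 and 1.303). Of the calls with GW3965, S100a8 and S100a7a passed in 2 of 12 fits with a library left out, Lyz1 in 5 and Pglyrp4 in 7. With troglitazone S100a7a passed in 2, Pglyrp4 in 3, S100a8 in 5, Wfdc12 in 6 and Lyz1 in 11. In order of replicate, S100a8 had 88.7, 472.8 and 697 CPM with GW3965 and 608, 474.5 and 125.5 with troglitazone. Defb3 likewise had its lowest GW3965 value in replicate 1 and its lowest troglitazone value in replicate 3.

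By Pearson's r of log2(CPM + 1) over the 12 libraries, which share 4 groups and 1 scaling, the tested genes most like Defb3 were Tiparp (r = 0.992), Stom, Map2k1, Noct and Sprr2i (0.985). Sprr2i, a small proline-rich protein of the cornified envelope, had mean levels of 0.679, 253.8, 55.0 and 53.8 CPM in UTX_Veh, IMQ_Veh, IMQ_GW3965 and IMQ_Troglitazone. The genes most like Defb4 were Rabl2 (0.988), Cfap69, Tpcn2, Ak4 and Zc3h7a. Those most like Defb14 were Cenpa (0.992), the histone of centromeres, Knstrn, a spindle protein, Limk2, Ttpa and Fam8a1. For Defb6 they were Txnl1 (0.993), Dnajc24, Tmed5, Ppa1 and Prelid3b, and for Defb1 Rpl22l1 (0.986), Ist1, Arl6ip1, Rab24 and Atp6v1c1. Cenpa went from 7.28 to 52.4, 32.1 and 28.7 CPM and Txnl1 from 46.2 to 87.9, 86.2 and 76.7 CPM in the same order of groups. Among the members themselves, r between deviations from the group means was 0.78 for Defb1 and Defb14 and 0.60 for Defb3 and Defb4, and -0.17 for Defb1 and Defb4, over the same 12 libraries.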

How the data were processed

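Libraries were made with a stranded mRNA kit from total RNA of ear skin, per the labels' protocols. FastQC, Trim Galore, STAR 2.7.3a and RSEM 1.3.3 and the genome build GRCm38 (mm10) are named in the submitters' processing notes; the annotation release was not given in the sources used here, nor was the strand setting. Per gene, the deposited tables hold RSEM expected counts, TPM and effective length, and the expected counts were rounded here. Of 55416 identifiers, 52083 matched a GENCODE M21 symbol. The 12 libraries were fitted together in edgeR 4.0.16 (R 4.3.3; TMM scaling, filterByExpr by group, quasi-likelihood test, Benjamini-Hochberg adjustment over 17130 genes), after a test on simulated data. DESeq2 1.42.0 and limma 3.58.1 (voom), other scalings and filters, a fit of the 2 groups compared, a replicate block, the lane field, removal of ENSMUSG00000119584 and leaving out each library were alternatives. Leaving out IMQ_Veh replicate 3 and IMQ_GW3965 replicate 3 together was added after the data were seen. Members, gene lists and tests were chosen with earlier results of these data known. Named were the members, up to 4 called genes of a list per comparison (largest change, mean of at least 1 CPM, no overlap), Il17a, Il17f, Il22, Il36g, Nfkbiz, Ccl20 and Ccr6, and the 5 genes most like each member. Il17rc, Il6st, Ahr, Tlr5, Retnla, Defb2, Gm39139 and, with troglitazone, Pglyrp4 were named after their values were seen. Il36g is annotated as Il1f9. Intervals and floors of counts cover counting error only.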

Additional observations from a re-analysis of the deposited data

How the results depend on the processing

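All 5 members were called higher against UTX_Veh in each of the 3 imiquimod groups under all 24 alternatives, and 0 differed between the drugs in any. For GW3965 against IMQ_Veh the count of members called, 1, became 2 with DESeq2, 3 with limma-voom, 2 without a filter, 3 without IMQ_Veh replicate 3 and IMQ_GW3965 replicate 3 together, and 0 to 3 with 1 library left out. For troglitazone the count of members was 3, 0 when only the 2 groups were fitted, 5 without those libraries together, and 0 to 5 with 1 library left out. Over all genes, 4166 were called without those libraries together and 162 to 4460 with 1 library left out. With 1 library left out, the log2 difference crossed 0 for Defb6 with GW3965 (-0.27 to 0.29; above 0, at 0.29, 0.12 and 0.02, without IMQ_Veh replicate 2 and IMQ_GW3965 replicate 1 or 2), Defb3 between the drugs (-0.39 to 0.57; below 0, at -0.18, -0.39 and -0.32, without IMQ_GW3965 replicate 2 or 3 and IMQ_Troglitazone replicate 3), Ccr6 with imiquimod (-0.12 to 0.46) and with troglitazone (-0.35 to 0.064), and Ccl20 with GW3965 (-0.58 to 1.14). It also reversed with limma-voom for Defb6 with GW3965 (0.022) and Defb3 between the drugs (-0.25), for Ccl20 with RLE scaling (-0.0019) and the lane field (-0.074), and without the 2 libraries together for Defb3 between the drugs (-0.389) and Ccl20 with GW3965 (-0.995). Over all alternatives, called genes numbered 102 to 3645 for GW3965 against IMQ_Veh (1129 in the fit reported), 0 to 4460 for troglitazone (1600) and 0 to 942 between the drugs (319). The cause was not tested.

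In deviations from the group means, same-numbered libraries correlated above 0.1 in 6 of 18 pairs (r from -0.266 to 0.439). With 3 libraries in each group, these correlations cannot settle whether the numbers pair the libraries. With the replicate number as a block, 5, 1, 3 and 0 members were called in the 4 comparisons, as without it. Low read counts in UTX_Veh (0 for Defb3, 1 for Defb4, 18 for Defb14 over the group) limit how well those rises are sized.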

Other observations

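Next to Defb14 lies Gm39139, a lincRNA on the opposite strand (chromosome 8, 19163520 to 19188015, GRCm38), chosen after its values were seen. It had 22 reads over UTX_Veh, 97 over IMQ_Veh, 58 with GW3965 and 62 with troglitazone. Its log2 difference of IMQ_Veh to UTX_Veh was 2.32 ± 0.27 (SE; edgeR adjusted p = 2.78e-05). Against IMQ_Veh it had edgeR adjusted p of 0.164 with GW3965 and 0.0692 with troglitazone, the latter 0.0336 without IMQ_Veh replicate 3.

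Reads of Defb4 per read of Defb3 were 1.09, 0.573 and 0.832 in the IMQ_Veh libraries and 0.934, 0.537 and 0.827 in IMQ_Troglitazone. In IMQ_GW3965 they were 1.96, 0.257 and 0.457, the widest spread of the 3 groups, with replicate 1 above and replicates 2 and 3 below every other library.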
